A study of Mus musculus with 2 samples.

Results

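Dkk2 and Col8a1 high tumour cells are Lewis lung carcinoma (LLC) cells in the highest 10% by the summed level of 4 marker genes, Dkk2, Col8a1, Nefm and Ankrd1. A level is given as unique molecular identifiers (UMIs, single captured molecules) of a gene per 1000000 UMIs (CPM). Tumour cells were barcodes with at least 300 genes, at most 20% mitochondrial UMIs and at least 5000 UMIs. They also held at least 500 CPM summed over the tumour genes Hmga2, Igf2bp1, Igf2bp2 and Wnt7b, and under 300 CPM summed over the immune genes C1qa, C1qb and Ptprc. Of 17864 barcodes, 7469 met these limits, and 747 of them were chosen, called members below. The lowest member score was 1234 CPM. The members were chosen by measured values, so the levels of the 4 markers describe the choice and are no result.

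LLC is a mouse lung carcinoma cell line, grown here as subcutaneous tumours in mice. One library came from tumours of mice given an IgG2a isotype antibody (control), and 1 from tumours of mice given an antibody that blocks PD-1, a checkpoint receptor on T cells. The design text places collection of the anti-PD-1 cells 7 days after treatment and calls the control cells untreated, whereas the labels of the sample give the isotype treatment. The number of mice, their strain and age, and a collection time for control are not given in the sources used here. Each group is 1 library, so no test was possible, differences between libraries and between treatments cannot be told apart, and every 95% interval covers counting error only. The libraries shared 107 barcode sequences. No sequence was a member in both libraries, and 9 members carried a sequence also found in the other library.

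DKK2 is a secreted protein of the Dickkopf family that binds the Wnt co-receptors LRP5 and LRP6 and modulates the canonical pathway, in which beta-catenin carries the Wnt signal to the nucleus. COL8A1 is a short-chain collagen of basement membranes and vessel walls, and NEFM is a neurofilament subunit of neurons. ANKRD1 is a nuclear ankyrin repeat protein and, like Ccn1, Ccn2 and Amotl2, a widely used target of the coactivators YAP and TAZ, which act through TEAD factors and respond to cell shape and stiffness.

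In GENCODE annotation of GRCm38, Dkk2 lies at chr3:132085292-132180304 on the forward strand and Col8a1 at chr16:57624258-57754737 on the reverse strand. Nefm lies at chr14:68082590-68124846 and Ankrd1 at chr19:36111961-36120099, both on the reverse strand. The 250 bases before the start of 5 genes are shown because Ccn1 and Amotl2 were among the genes highest in members beside the markers, Ankrd1 is the marker of the same target group, and Dkk2 and Col8a1 make up most of the score. They are from RefSeq (GRCm38.p6), 5′ to 3′ on the gene's strand. Capitals mark GGAATG or its reverse complement CATTCC, the core letters bound by TEAD factors.
Dkk2, chr3:132085042-132085291: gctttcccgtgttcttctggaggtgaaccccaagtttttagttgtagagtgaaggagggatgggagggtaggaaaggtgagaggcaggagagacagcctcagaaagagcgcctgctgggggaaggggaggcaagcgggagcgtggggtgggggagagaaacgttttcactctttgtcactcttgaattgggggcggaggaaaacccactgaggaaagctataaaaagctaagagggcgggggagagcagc
Col8a1, chr16:57754738-57754987: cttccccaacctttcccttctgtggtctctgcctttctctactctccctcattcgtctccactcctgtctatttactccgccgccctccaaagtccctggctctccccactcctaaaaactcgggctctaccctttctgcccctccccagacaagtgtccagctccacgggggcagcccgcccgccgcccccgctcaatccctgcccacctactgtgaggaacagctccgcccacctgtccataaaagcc
Ankrd1, chr19:36119845-36120094: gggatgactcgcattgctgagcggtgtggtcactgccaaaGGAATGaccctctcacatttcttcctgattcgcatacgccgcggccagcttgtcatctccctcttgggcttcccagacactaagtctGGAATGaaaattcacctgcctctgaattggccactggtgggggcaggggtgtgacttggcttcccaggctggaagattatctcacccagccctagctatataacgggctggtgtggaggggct
Ccn1, chr3:145649986-145650235: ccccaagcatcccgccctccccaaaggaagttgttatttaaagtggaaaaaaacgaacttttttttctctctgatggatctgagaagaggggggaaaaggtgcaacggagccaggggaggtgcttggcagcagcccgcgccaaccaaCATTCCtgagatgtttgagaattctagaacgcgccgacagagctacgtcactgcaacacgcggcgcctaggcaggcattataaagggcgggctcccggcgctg
Amotl2, chr9:102717554-102717803: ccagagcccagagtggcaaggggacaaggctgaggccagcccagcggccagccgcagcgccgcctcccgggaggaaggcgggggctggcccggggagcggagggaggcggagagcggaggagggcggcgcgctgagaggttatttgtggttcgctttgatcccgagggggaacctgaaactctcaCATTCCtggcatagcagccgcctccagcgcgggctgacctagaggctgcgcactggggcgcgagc

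The Ankrd1 window held 2 matches, which began 210 and 123 bases before the start. The Ccn1 window held 1 match at 103 bases and the Amotl2 window 1 at 65 bases. The Dkk2 and Col8a1 windows held 0, as did those of Fads3, Cavin2, Mical2 and Sparc, which were also among the genes highest in members. Il1rl1 had a match in 1 of 2 windows and Sgk1 in 1 of 6. Windows of Nefm, Ccn2, Podnl1, Steap1, Cldn12 and Tm4sf1 are not described here. RefSeq and GENCODE starts differ for some genes, and the Ankrd1 and Amotl2 windows lie inside the GENCODE spans of these genes. Of 32851 promoter windows of this length in the RefSeq table, 4153 (12.6%) held at least 1 match. A match describes letters only, and none of these windows was measured for binding here.

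The score was mostly Dkk2. Of the summed marker level of the members, Dkk2 made up 81.5% in control against 87.1% in anti-PD-1. It was the highest of the 4 markers in 49 of 54 and 677 of 693 members. Col8a1 added 10.4% and 9.40%, Ankrd1 6.40% and 2.66%, and Nefm 1.73% and 0.88%. At least 1 UMI of Col8a1 was found in 34 control and 493 anti-PD-1 members, of Ankrd1 in 18 and 205, and of Nefm in 7 and 132. The label is carried by Dkk2 more than by the other markers, and 1 control and 55 anti-PD-1 members held UMIs of all 4. The members are the upper end of a continuous range. Another 182 tumour cells lay within 10% below the limit, and 153 members (20.5%) lay within 10% above it. The 50 members just inside the limit scored 1234 to 1274 CPM with a median Dkk2 level of 1118 CPM, and the 50 cells just outside scored 1195 to 1234 CPM with a median Dkk2 level of 1086 CPM.

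**Figure D1:**
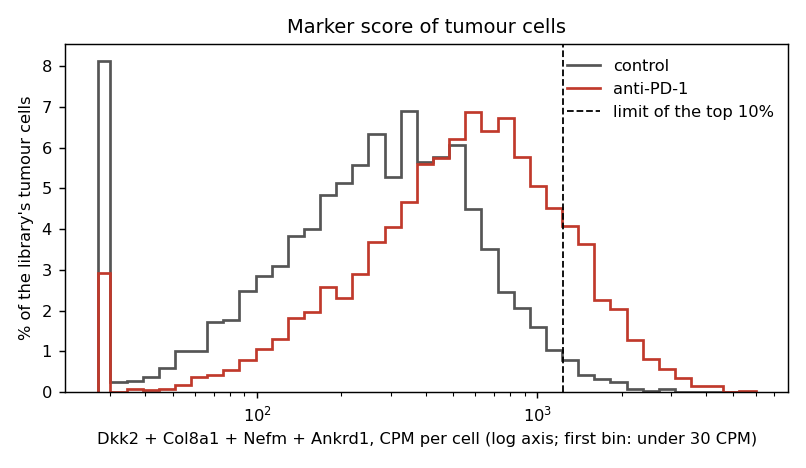
Distribution of the summed CPM of Dkk2, Col8a1, Nefm and Ankrd1 over the tumour cells of each library (x axis, log scale, with cells under 30 CPM in the first bin; y axis, % of the library's tumour cells). The dashed line is the limit of the top 10% at 1234 CPM, and the anti-PD-1 distribution (median 561 CPM) lies to the right of control (median 267 CPM).

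Members made up 1.86% of control tumour cells (54 of 2900, exact binomial interval 1.40 to 2.42) and 15.2% of anti-PD-1 tumour cells (693 of 4569, interval 14.1 to 16.2), so 92.8% of members came from anti-PD-1. The whole distribution was shifted: the median score was 267 CPM in control and 561 CPM in anti-PD-1, and the 90th percentile 678 and 1456 CPM. Without Dkk2 in the sum the shares were 7.38% and 11.7%. By the mean rank of the 4 markers they were 5.93% and 12.6%. The size of the difference in share therefore moved with the weight of Dkk2, while its direction was the same in both. Dkk2 UMIs were also found in immune barcodes (immune genes at least 300 CPM, tumour genes under 100 CPM). With every cell thinned to 5000 UMIs, 14.7% of 68 such barcodes in control and 29.4% of 126 in anti-PD-1 held Dkk2, against 61.5% and 80.4% of the other tumour cells. Without thinning, the shares were 22.1% and 38.9% of immune barcodes, at median depths of 6597 and 7202 UMIs, and 87.3% and 94.4% of other tumour cells. Free RNA as a source of Dkk2 UMIs was not tested further.

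Members were shallower than the remaining tumour cells. Their median was 13222.5 UMIs against 17725.5 in control, and 13184 against 14484.5 in anti-PD-1. Mitochondrial shares were low in both, with medians of 0.52% in members and 0.59% in others in control, and 0.90% and 0.74% in anti-PD-1. The median level of the 4 tumour genes was 1422 CPM in members against 1216 CPM in control and 1439 against 1332 CPM in anti-PD-1. These genes were part of the rule for tumour cells, so their level describes the choice. Hmga2, a chromatin protein, was at 1121 against 793 CPM and at 973 against 861 CPM, while Igf2bp2, an RNA-binding protein, was at 178 against 182 CPM and at 136 against 158 CPM. The keratin genes Krt8 and Krt18 and Lin28b of the tumour list had 0 UMIs in control members, and Peg10 had 0 in members of both libraries. These genes were also low in the other control tumour cells, with Krt8 at 0.73, Krt18 at 0.015, Lin28b at 3.24 and Peg10 at 0.076 CPM. Peg10 was at 0.042 CPM in the others of anti-PD-1, so the zeros do not set members apart.

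Because a cell chosen for high Dkk2 must be high in Dkk2, each marker was also read in the 10% of cells chosen by the other 3. The log2 ratio compares the summed CPM of the chosen cells with that of the remaining tumour cells. Ankrd1 was higher by 1.87 in control (1.35 to 2.34) and 1.27 in anti-PD-1 (1.09 to 1.44). Col8a1 was higher by 0.91 (0.60 to 1.21) and 1.15 (1.07 to 1.24), and Dkk2 by 0.56 (0.48 to 0.64) and 0.62 (0.58 to 0.65). Nefm stood at 0.03 in control with an interval from -1.60 to 1.26, and at 0.88 (0.64 to 1.12) in anti-PD-1. These ratios describe how far the markers of the rule occurred together and support nothing further, since the markers were chosen with earlier results of these data known. Most cells chosen without Col8a1 (46 of 53 in control, 627 of 694 in anti-PD-1) or without Ankrd1 (49 of 53 and 664 of 694) were members. For Nefm the control library gave 5 UMIs in the chosen cells, too few to place it. Choice without Dkk2 picked 214 control and 533 anti-PD-1 cells, of which 22 and 238 were members.

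**Figure D2:**
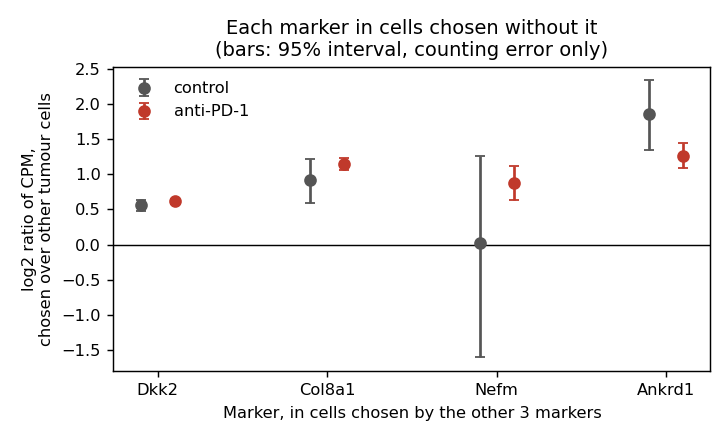
Log2 ratio of CPM (y axis) of each marker (x axis) in cells chosen by the other 3 markers over the remaining tumour cells, in each library, with bars for the 95% interval of counting error. Ankrd1, Col8a1 and Dkk2 lie above 0 in both libraries, between 0.56 and 1.87, while the bar of Nefm in control spans 0.

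In the members themselves Dkk2 was at 1318 CPM against 245 CPM in other tumour cells in control and at 1505 against 448 CPM in anti-PD-1. Col8a1 was at 186 against 60.2 CPM and at 177 against 55.2 CPM. Ankrd1 was at 94.8 against 11.9 CPM and at 50.8 against 11.2 CPM. Nefm was lowest, at 20.9 against 5.66 CPM and at 18.7 against 9.10 CPM, and 64.7% of its UMIs in control members lay in 1 cell. These values follow from the choice.

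Few other genes stood far from the remaining tumour cells in both libraries. Of 10408 genes with at least 200 UMIs in each library, 3 were over 2-fold higher in members in both (0.0288%), Ccn1, Ccn2 and Amotl2, and 10 were over 2-fold lower in both (0.0961%). The lower ones were Eya2, Lcn2, Nfatc2, Ccng2, Nlrp3, Trib3, Ifit1, Hoxa5, Angptl6 and Ccrl2, and Eya2, Lcn2, Nfatc2, Hoxa5 and Ccrl2 rested on 1 UMI each in control members. At 1.5-fold the counts were 27 higher (0.259%) and 94 lower (0.903%). Single libraries gave more: 80 higher (0.769%) and 363 lower (3.49%) in control with its 54 members, and 11 (0.106%) and 43 (0.413%) in anti-PD-1. The count of 3 higher genes was 0, with 3 lower, when every cell was thinned to 5000 UMIs. It was also 0 when Col8a1 or Ankrd1 was left out of the sum, 1 without the tumour cells highest in fibroblast markers, and 1, Amotl2, when the member cell with the most UMIs of a gene was left out for that gene.

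**Figure D3:**
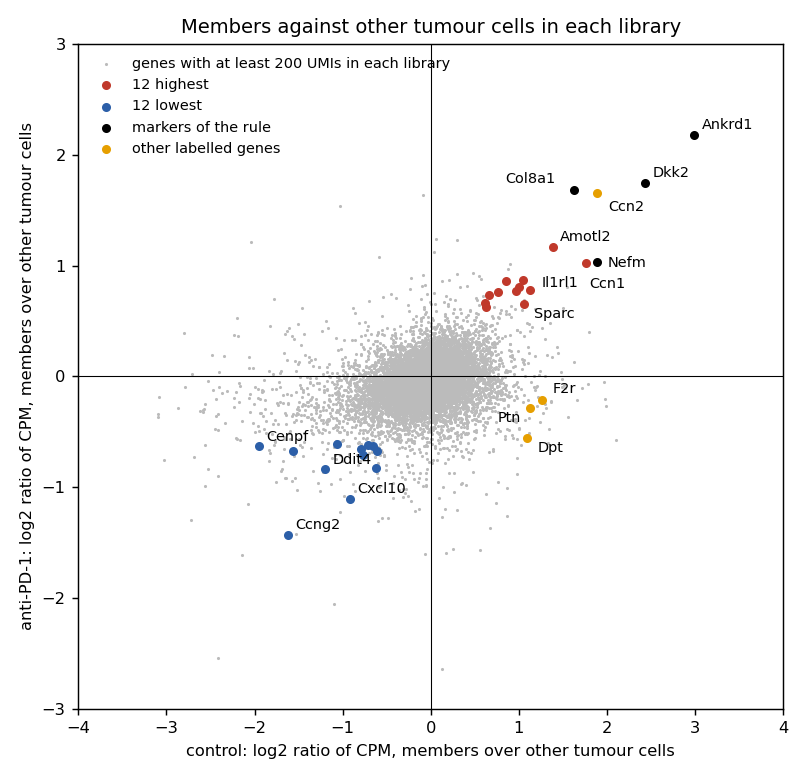
Log2 ratio of CPM in members over other tumour cells, control on the x axis and anti-PD-1 on the y axis, for 10412 genes with at least 200 UMIs in each library (1 lies outside the axes). The markers of the rule are black, the 12 highest and 12 lowest genes red and blue, and by the value nearer 0 Amotl2 (1.39 and 1.17) is the highest of the 12 and Ccng2 (-1.62 and -1.43) the lowest of the other 12.

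Ccn1, a matricellular protein and YAP target, was at 774 CPM in control members against 229 CPM in other tumour cells, and at 398 against 195 CPM in anti-PD-1. The log2 ratios were 1.76 (1.64 to 1.87) and 1.03 (0.98 to 1.08), and 20.8% of the Ccn1 UMIs of control members lay in 1 cell. Amotl2, an angiomotin family scaffold that binds YAP, was at 86.2 against 32.9 CPM (log2 ratio 1.39, 1.02 to 1.73) and at 45.8 against 20.3 CPM (1.17, 1.02 to 1.32). Both genes were higher in members of both libraries. Ccn1 UMIs were found in 35 control and 400 anti-PD-1 members and Amotl2 UMIs in 26 and 219. The largest share of 1 control cell was 12.9% for Amotl2. In thinned cells, Ccn1 was found in 37.0% of control members (interval 24.3 to 51.3) and 31.1% of other tumour cells. In anti-PD-1 these shares were 39.5% and 26.0%. For Amotl2 they were 27.8% (16.5 to 41.6) and 12.6% in control, and 15.6% and 8.49% in anti-PD-1. The higher Ccn1 level of control members was therefore not seen as a higher share beyond counting error. Ccn2, the related matricellular protein, was at 46.8 against 12.7 CPM (1.89) and at 13.0 against 4.12 CPM (1.66). However, 68.4% of its 38 UMIs in control members came from 1 cell, and the control ratio was 0.24 without that cell and -0.48 when the top 5% was taken. Ccn2 was at 235 CPM in barcodes with under 100 CPM of tumour genes, against 8.78 CPM over all tumour cells. It was therefore left out of the ranking of the highest genes. The part of RNA from other cells in its ratios was not tested.

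The list of YAP and TEAD target genes had 24 of 27 genes with at least 100 UMIs in each library. Of these, 13 lay above the median gene in both libraries and 6 below it in both, beside 30.2% and 30% of the 10944 genes measured this way. The list median was 0.20 in control and 0.16 in anti-PD-1, where the median of all genes was -0.058 and -0.061. The factors themselves, named after their values were seen, lay on either side of 0: Yap1 was at 162 against 193 CPM in control and 158 against 175 CPM in anti-PD-1, and Tead1 at 263 against 216 CPM and 252 against 213 CPM. Of actin and SRF genes, 12 of 17 measured lay above the median gene in both libraries and 0 below it, with medians of 0.11 and 0.04. Among them Vcl, the focal adhesion protein vinculin, had log2 ratios of 0.37 and 0.38, and tropomyosin Tpm1 0.41 and 0.32.

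Levels of Ccn1 and Amotl2 varied among members with the minor markers Ankrd1 and Col8a1, as did levels of genes outside the YAP list. Of the control members, the 18 with an Ankrd1 UMI held Ccn1 at 1020 CPM and the 36 without at 627 CPM. In anti-PD-1 the 205 members with an Ankrd1 UMI held 618 CPM and the 488 without 254 CPM, beside 195 CPM in the other tumour cells. Amotl2 stood at 145 and 51.1 CPM in control and at 75.3 and 26.5 CPM in anti-PD-1. Cavin2, outside the YAP list, stood at 428 and 264 CPM in control and at 288 and 159 CPM in anti-PD-1. Sparc, also outside it, stood at 1405 and 761 CPM and at 763 and 647 CPM. Il1rl1 (2035 and 2154 CPM) and Cxcl10 (87.3 and 130 CPM) had the opposite order in anti-PD-1. Members with an Ankrd1 UMI had more UMIs per cell, with medians of 15425.5 against 12422.5 in control and 17885 against 11782 in anti-PD-1, and the part of depth in the split was not tested. The split by Col8a1 gave the same order: in anti-PD-1, Ccn1 was at 473 CPM in the 493 members with a Col8a1 UMI and at 123 CPM in the 200 without, below the 195 CPM of other tumour cells. Their median depths were 14866 and 9888.5 UMIs. In control the 34 with and 20 without a Col8a1 UMI held 856 and 584 CPM. Nefm gave no common order, with Ccn1 at 177 CPM in 7 and 871 CPM in 47 control members, and at 442 CPM in 132 and 381 CPM in 561 anti-PD-1 members. Ankrd1 and Col8a1 are part of the score, so members without them reached the limit by the other markers, mostly Dkk2. Median Dkk2 with and without a Col8a1 UMI was 1198 and 1502 CPM in control, and 1365 and 1493 CPM in anti-PD-1. By Ankrd1 it was 1116 and 1381 CPM, and 1281 and 1455 CPM. The splits therefore describe the choice of cells. Members without a Col8a1 UMI held Ccn1 above the 229 CPM of other tumour cells in control, but below those of anti-PD-1.

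Cells were also chosen with Dkk2 alone and without Dkk2. With Dkk2 alone as the score, 0 genes were over 2-fold higher in both libraries and 12 were over 2-fold lower. With Dkk2 left out of the sum, 10 were higher and 11 lower, the log2 ratio of Ccn1 was 1.55 (control) and 1.89 (anti-PD-1), and the YAP list median was 0.25 and 0.41.

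The 12 highest genes by the value nearer 0 also held genes of other roles. Il1rl1, the receptor of interleukin 33, was the most abundant, at 3065 CPM in control members against 1401 CPM and at 2107 against 1229 CPM in anti-PD-1 (log2 ratios 1.13 and 0.78). It was widely detected in tumour cells: after thinning to 5000 UMIs it was found in 98.1% of control members and 94.6% of other tumour cells, and in 58.8% of immune barcodes (98.1%, 99.1% and 67.6% without thinning). Sparc, a collagen-binding matricellular protein, was at 1002 against 483 CPM and at 693 against 440 CPM (1.05 and 0.65). Cavin2, a coat protein of caveolae, was at 325 against 180 CPM and at 210 against 116 CPM (0.85 and 0.86). The remaining genes were Fads3 (1.04 and 0.87), Mical2, an actin oxidising enzyme (0.997 and 0.80), the kinase Sgk1 (0.97 and 0.77), Podnl1 (0.77 and 0.76), Steap1 (0.66 and 0.74), the claudin Cldn12 (0.62 and 0.62) and Tm4sf1 (0.61 and 0.66). All 12 had intervals above 0 in both libraries. Cldn12 in control was the exception to a common sign under thinning, at -0.055.

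Secreted proteins were among the genes named from the other lists. Csf1, the macrophage growth factor, was at 863 against 591 CPM in control and at 978 against 715 CPM in anti-PD-1 (0.55 and 0.45). Plau, the urokinase protease, had log2 ratios of 1.15 and 0.45, Sema3a, a repulsive axon guidance cue, 1.09 and 0.49, Ltbp1, which binds latent TGF-beta, 0.69 and 0.46, and Fstl3, an activin inhibitor, 0.59 and 0.72. For Plau, 19.8% of the UMIs in control members lay in 1 cell. Ligand and protease genes of the same lists were also lower in both libraries. They included Lif (-0.74 and -0.42), Cx3cl1 (-0.50 and -0.42), Mmp13 (-1.23 and -0.87) and Inhbb (-1.34 and -2.51). The semaphorins Sema3f (-1.28 and -0.96), Sema4a (-0.86 and -1.04) and Sema7a (-3.10 and -0.37) were lower too. These lower genes had 1 to 11 UMIs each in control members. All these genes belong to different lists, and secreted proteins were not tested as a group.

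Along the range of the score, genes followed different shapes. Tumour cells of each library were split into 10 groups of equal size by score, numbered upward. Ccn1 was at 266 CPM in group 9 and 589 CPM in group 10 in control, with 112 CPM at its lowest, and at 271 and 456 CPM in anti-PD-1, with 139 CPM at its lowest. Amotl2 and Cavin2 were graded: Cavin2 went from 105 CPM in the lowest to 301 CPM in the highest group in control and from 103 to 209 CPM in anti-PD-1. Il1rl1 was higher at both ends than between them in control. In anti-PD-1 it fell from the lowest group and then rose, with groups 8 and 9 (1411 and 1608 CPM) already above the lowest group. It was at 1862 and 2318 CPM in control with 1144 CPM at its lowest, and at 1345 and 2337 CPM in anti-PD-1 with 1041 CPM at its lowest. Ccng2 went down over the range from 51.7 to 17.2 CPM in control, with 15.7 CPM in group 9, and from 32.5 to 8.13 CPM in anti-PD-1, and Ddit4 from 103 to 32.2 CPM and from 74.0 to 23.5 CPM. The lowest group was shallow in both libraries, with median depths of 11222 and 11425 UMIs.

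**Figure D4:**
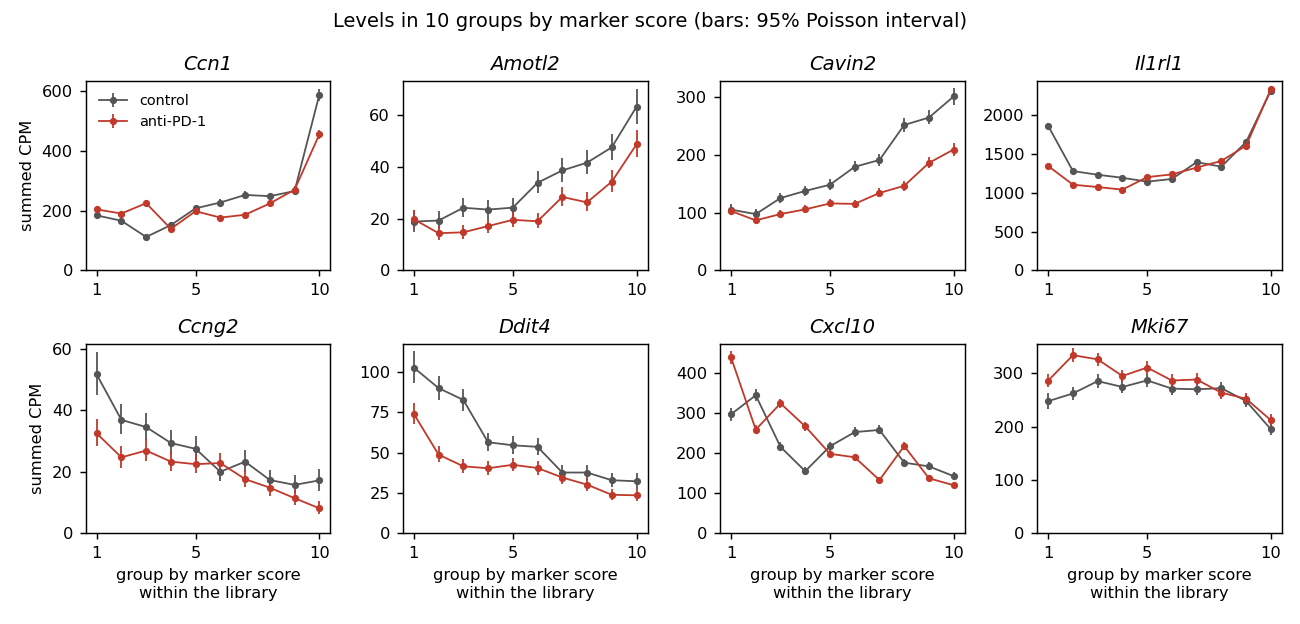
Summed CPM (y axes) of 8 genes in the tumour cells of each library split into 10 groups by marker score (x axis, 1 lowest, 10 highest), with bars for the 95% Poisson interval. Ccn1 stands out in the highest group (589 CPM in control, 456 CPM in anti-PD-1), while Ccng2 and Ddit4 are lowest at the high end.

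Genes of the G2 and M phases, when cells condense and divide their chromosomes, were lower in members. All 24 of the list were measured and 24 lay below the median gene in both libraries, with 0 above, and the list medians were -0.93 in control and -0.32 in anti-PD-1; they were 0.03 and 0.09 when cells were chosen by mean rank, and -0.25 and 0.04 without Dkk2 in the sum. Cenpf, a kinetochore protein, was at 35.7 against 137 CPM in control and at 79.6 against 123 CPM in anti-PD-1 (-1.94 and -0.63). Cdc20, the activator of the anaphase promoting complex, was at 82.5 against 208 CPM and at 136 against 195 CPM (-1.34 and -0.52). Mki67 was at 156 against 265 CPM and at 224 against 297 CPM (-0.76 and -0.41), Nusap1 had ratios of -1.56 and -0.67, and the mitotic kinesin Kif20a -1.35 and -0.52. Members were shallower than the others. With the others weighted to the UMI counts of the members, the medians were -0.70 and -0.24. Of the members, 0 of 54 in control (exact binomial upper limit 6.60%) lay in the highest 10% of their library by the summed level of this list, against 10.2% of the others. In anti-PD-1 these shares were 4.62% and 10.96%.

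S phase genes, which copy DNA, did not go the same way: 16 of 24 lay above the median gene in both libraries and 4 below, with medians of 0.16 in control and 0.02 in anti-PD-1. The control median was -0.12 after thinning and -0.11 when the top 10% was taken within each library.

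Hypoxia genes, induced by low oxygen, were mostly lower. Of 22 measured hypoxia genes (of 25), 13 lay below the median gene in both libraries and 2 above, with medians of -0.42 and -0.22; without Dkk2 in the sum the medians were 0.05 and 0.33, and by mean rank the anti-PD-1 median was 0.02. Vegfa, the vascular growth factor, was at 40.6 against 81.5 CPM in control and at 33.8 against 46.3 CPM in anti-PD-1 (-1.005 and -0.45). Egln3, an oxygen-sensing hydroxylase, had ratios of -0.55 and -0.68, and carbonic anhydrase Car9 -0.61 and -0.87. Ddit4, an inhibitor of the growth kinase mTORC1 that belongs to this list, was at 24.6 against 56.4 CPM and at 23.5 against 42.1 CPM (-1.20 and -0.84).

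Ccng2, cyclin G2, an atypical cyclin linked to growth arrest, was the lowest by the value nearer 0 among the genes with at least 20 CPM in members or others that were not over 5 times higher outside tumour cells. Without these limits Lcn2 (-2.42 and -2.54, from 1 UMI in control members) was lower. Ccng2 was at 8.62 against 26.5 CPM in control, from 7 UMIs, and at 8.33 against 22.4 CPM in anti-PD-1 (-1.62, -2.94 to -0.58, and -1.43, -1.75 to -1.12). After thinning, it was found in 1.85% of control members against 12.4% of others and in 3.75% against 10.5% in anti-PD-1. Without thinning, these shares were 9.26% against 32.8% and 10.4% against 25.9%. Sesn2, a stress-induced inhibitor of mTORC1, had ratios of -1.06 and -0.61, and Trib3, a target of the stress factor ATF4, -1.03 and -1.22. Pnrc1 (-0.77 and -0.71), Cby1, an antagonist of beta-catenin (-0.79 and -0.65), the amino acid transporter Slc43a2 (-0.66 and -0.63) and the mitochondrial folate enzyme Aldh1l2 (-0.61 and -0.67) were the remaining genes of the 12 lowest outside the cell cycle and interferon lists. The list of ATF4 and unfolded protein response genes was mixed, with 6 of 21 above and 8 below and medians of -0.23 and -0.03. Of all genes measured this way, 30.2% lay above and 30% below. Without Dkk2 in the sum, Trib3 stood at 0.09 and 0.18 and Aldh1l2 at 0.83 in anti-PD-1.

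Genes of both interferon lists lay below the median gene more often than above it. Of 24 measured genes of the interferon gamma response (of 25), 14 lay below the median gene in both libraries, 1 above (Nlrc5) and 9 on different sides, with medians of -0.34 and -0.45; the control median was 0.07 without Dkk2 in the sum. Cxcl10, a chemokine for T cells, was at 117 against 221 CPM in control and at 113 against 243 CPM in anti-PD-1 (-0.92 and -1.10), but 1.58 in control without Dkk2 in the sum. After thinning, the share of cells with a Cxcl10 UMI was 29.6% in control members and 27.1% in others, and 26.0% and 26.5% in anti-PD-1, so the lower level was not seen as a lower share. Without thinning, the shares were 55.6% and 58.9%, and 48.9% and 51.0%. The GTPases Irgm1 (-0.72 and -0.62) and Irgm2 (-0.62 and -0.83) and Cd274, the PD-1 ligand, at 14.8 against 31.6 CPM and 10.8 against 16.8 CPM (-1.10 and -0.64), were also lower in both. Of 18 measured type I interferon genes (of 20), 10 lay below, 0 above and 8 on different sides, with medians of -0.14 in control and -0.68 in anti-PD-1; the control median was 0.03 with the mean of single-cell CPM and 0.30 without Dkk2 in the sum. Ifit1, an antiviral RNA-binding protein, was at 6.15 against 14.7 CPM, from 5 UMIs, and at 10.9 against 22.3 CPM (-1.26 and -1.04).

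Genes of sterol and fatty acid synthesis were higher by small amounts. All 23 were measured, 22 lay above the median gene in both libraries and 0 below, and the medians were 0.27 and 0.23. Insig1, which holds back the sterol-sensing factor SREBP, was at 249 against 191 CPM in control and at 233 against 179 CPM in anti-PD-1 (0.38 and 0.38). The lanosterol demethylase Cyp51 had ratios of 0.40 and 0.37, and lanosterol synthase Lss 0.35 and 0.30. With the top 5% the control median was -0.12, and with the others weighted to the members' UMI counts the medians were 0.30 and 0.29.

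The Wnt pathway around Dkk2 was sparsely measured. Of 18 secreted Wnt regulators other than Dkk2, 1 had at least 100 UMIs in each library, Cer1, at 11.1 against 6.83 CPM in control and 7.50 against 8.25 CPM in anti-PD-1. Of the Wnt ligands 7 of 19 were measured, with 2 above and 1 below; Wnt5a, which mostly signals without beta-catenin, was at 23.4 against 19.4 CPM and at 31.9 against 23.7 CPM (0.27 and 0.43, the former with an interval from -0.47 to 0.92). Of the receptors 10 of 20 were measured, with 3 above and 2 below. Lrp5, a co-receptor that binds DKK2, was at 389 against 356 CPM and at 435 against 410 CPM (0.13 and 0.08), and Kremen1, a DKK receptor, at 81.2 against 69.2 CPM and 75.9 against 75.4 CPM. For Kremen1 the intervals included 0 in both libraries. Of beta-catenin target genes 5 of 16 were measured and 4 lay above the median gene in both libraries: Znrf3, Apcdd1, Myc and Ccnd1. Beside these counts, 30.2% of all 10944 genes measured this way lay above and 30% below. Apcdd1 had intervals that included 0 in both libraries (-0.30 to 0.49 and -0.08 to 0.09), as did Znrf3 in control (-0.22 to 0.46). Myc, a growth-promoting transcription factor with many inputs, was at 2937 against 1949 CPM and at 1827 against 1305 CPM (0.59 and 0.49). Znrf3, a ubiquitin ligase that removes Wnt receptors, was at 91.1 against 83.2 CPM and at 92.1 against 68.9 CPM (0.13 and 0.42).

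Genes related to Col8a1 and Nefm by family lay on both sides of 0. Of network and short-chain collagens other than Col8a1, 6 of 10 were measured and 2 lay above the median gene in both libraries, the basement membrane chains Col4a1 (885 against 564 CPM and 826 against 640 CPM) and Col4a2 (471 against 305 CPM and 446 against 352 CPM). The other chains Col4a5 (0.64 and -0.42) and Col4a6 (0.36 and -0.43) had ratios of opposite sign. Their control intervals included 0, at -0.28 to 1.42 from 13 member UMIs and -0.78 to 1.30 from 9, so the control side was not settled. Of fibrillar and other collagens, 15 of 18 were measured, 5 above and 3 below, with medians of 0.22 and -0.22. Among all genes, 30.2% lay above and 30% below. The fibroblast collagens Col1a1 (-0.68 and -0.52) and Col1a2 (-1.13 and -0.97) had ratios below 0, with 40% and 38.4% of their UMIs in anti-PD-1 members in 1 cell. Without the tumour cells highest in fibroblast markers the anti-PD-1 ratios were 0.58 and 0.41. For Col1a1 the ratio was 0.40 in control with immune genes under 100 CPM, and in anti-PD-1 0.056 with the top 5% and 0.18 with tumour genes at 1000 CPM or more. Of neurofilament and neural genes other than Nefm, 7 of 21 were measured, with 3 above and 1 below. Nestin, Nes, an intermediate filament of progenitors, was at 321 against 244 CPM and at 362 against 295 CPM (0.40 and 0.30), and neuronal tubulin Tubb3 at 17.2 against 37.5 CPM and 10.3 against 17.2 CPM (-1.12 and -0.73).

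**Figure D5:**
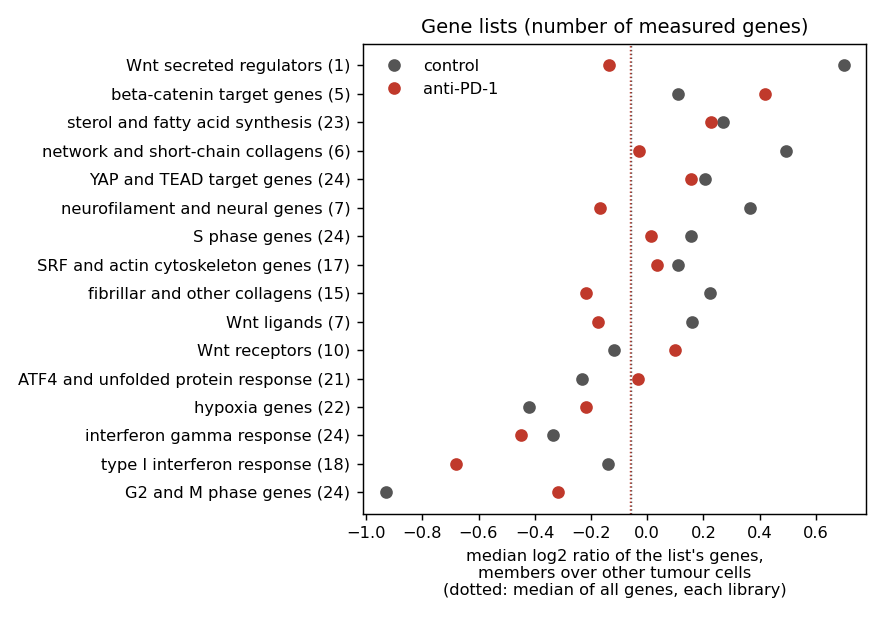
Median log2 ratio of members over other tumour cells (x axis) for 16 gene lists (y axis, number of measured genes in brackets), in each library, with dotted lines at the median of all genes (-0.058 and -0.061). G2 and M phase genes are lowest in control at -0.93, and sterol genes and YAP targets lie right of the dotted lines in both libraries.

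Some genes lay on opposite sides of the other tumour cells in the members of the libraries. Relative to the other tumour cells of their library, F2r, a thrombin receptor, was higher in control members (188 against 78.4 CPM, 1.26) and lower in anti-PD-1 members (69.8 against 81.0 CPM, -0.21). Ptn, the growth factor pleiotrophin, was at 489 against 223 CPM and at 251 against 305 CPM (1.13 and -0.28). The matrix genes Dpt (1.09 and -0.55) and Lum (1.21 and -0.19) and the adhesion molecule Ncam1 (0.60 and -0.17) had the same signs. These signs moved with the choice of cells: by mean rank the control ratios were -0.36 for F2r, -0.39 for Ptn, -0.62 for Dpt, -0.63 for Lum and -0.45 for Ncam1. F2r was at -0.036 in control after thinning and at 0.70 in anti-PD-1 without Dkk2 in the sum. Lum in anti-PD-1 was at 0.31 after thinning, 0.36 with Dkk2 alone and 0.29 without Col8a1. By size of the difference, Gask1b (1.71 and -0.11), Peg3 (1.52 and -0.11), Prl8a9 (-2.62 and -0.31), Znhit3 (-1.71 and 0.03) and Ift122 (-1.74 and -0.24) also stood out, as did the urea transporter Slc14a1 (-1.19 and 0.50). The control ratios of Prl8a9, Znhit3 and Ift122 rested on 7, 8 and 5 UMIs in members. In anti-PD-1 the intervals of Gask1b, Peg3 and Znhit3 included 0, and 27.9% of the Prl8a9 UMIs of members lay in 1 cell. Peg3 was at -0.56 in control by mean rank. Fibroblast markers, which include Dpt and Lum, had the signs of F2r and Ptn in sum. Summed over the list, of which 8 of 9 were measured, they were at 3332 CPM in control members against 1827 CPM in others and at 2066 against 2591 CPM in anti-PD-1, led by Col3a1 at 2728 against 1499 CPM and 1667 against 2106 CPM. Not all genes of the list had these signs. Thy1 was lower in members of both libraries (4.92 against 9.38 CPM and 3.57 against 5.51 CPM). Mfap5 was at 3.69 against 5.19 CPM in control and at 7.32 against 6.68 CPM in anti-PD-1, and Pdgfrl was at 0 in members of both libraries. The part of fibroblast RNA in these ratios was not tested directly. Without the 10% of tumour cells highest in fibroblast markers (11 of 54 and 33 of 693 members left out), Ccn1 in control was at 0.98, Ccn2 in control at 0.29, and 1 gene was over 2-fold higher in both libraries.

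Markers of other cell types lay on both sides of the other tumour cells. Macrophage markers summed to 815 CPM in control members against 951 CPM in others and to 977 against 1257 CPM in anti-PD-1, with 8 of 12 below the median gene in both libraries and 1 above. Endothelial markers summed to 16.0025 against 46.6 CPM and 13.8 against 17.0 CPM, and T cell markers to 12.3 against 19.6 CPM and 4.94 against 6.07 CPM, with Cd3g at 3.69 against 2.18 CPM in control. Neutrophil, NK cell, Schwann and glial, and muscle markers also had lower sums in members of both libraries. Dendritic cell markers summed to 241 against 225 CPM and 174 against 158 CPM, mostly Fscn1, while Flt3, Xcr1 and Clec9a were at 0 UMIs in control members. Higher in control members alone were the sums of monocyte markers (2972 against 2321 CPM in control, 2448 against 3008 CPM in anti-PD-1), led by Fn1 at 1395 against 827 CPM in control, and of pericyte and smooth muscle markers (124 against 89.1 CPM and 62.5 against 82.7 CPM), led by Pdgfrb at 96.0 against 56.6 CPM in control. Not all genes of these lists were higher in control members. The monocyte markers Ccr2 (11.1 against 16.3 CPM) and F10 (6.15 against 8.02 CPM) were lower there, and S100a4 was at 1256 against 1204 CPM. Of the pericyte and smooth muscle markers Mcam was lower (6.15 against 11.3 CPM), and Rgs5, Notch3, Myh11, Des, Kcnj8 and Abcc9 had 0 UMIs. Erythroid markers were at 869 against 444 CPM in control and 46.7 against 51.5 CPM in anti-PD-1. The part of these cell types in the control values was not tested.

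Members overlapped unevenly with other high-scoring tumour cells, each defined as the highest 10% of its library. Il24 and Msln high cells made up 13.0% of control members (interval 5.37 to 24.9) against 9.94% of others, and 16.2% (13.5 to 19.1) against 8.90% in anti-PD-1. Ncam1 and F2r high cells made up 25.9% (14.96 to 39.7) against 9.70% in control and 6.35% (4.65 to 8.43) against 10.7% in anti-PD-1. Gria3 and Gpnmb high cells made up 7.41% against 10.0% and 7.07% against 10.5%. Hypoxia high cells made up 3.70% against 10.1% and 8.08% against 10.3%, and interferon gamma high cells 7.41% against 10.0% and 6.93% against 10.6%. In control all these intervals except that of Ncam1 and F2r included the share of the others. In anti-PD-1 the members held more Il24 and Msln high cells and fewer of the Ncam1, Gria3 and interferon sets than counting error spans, while the hypoxia interval (6.16 to 10.4) reached the share of the others.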

How the data were processed

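Subcutaneous LLC tumours were measured by single-cell RNA sequencing in 2 libraries, 1 per group, grouped by the treatment label. The authors deposited raw UMI counts for each gene and barcode, per the file headers. A probe-based 10x Genomics Flex kit and also a 3' protocol are named in the labels. The submitters' processing notes name Cell Ranger 7.0.1 and mm10, and the matrix header Cell Ranger 9.0.1. The libraries held 113268618 (control) and 115407230 (anti-PD-1) UMIs.

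UMIs were summed over members and over the other tumour cells of each library and scaled to CPM. Log2 ratios carry exact conditional 95% intervals, CPM Poisson and shares exact binomial ones, without a test. With 0 UMIs, 3 counts were used. The code was tested on simulated data (Python 3.11.15, numpy 2.4.6, scipy 1.17.1, pandas 2.3.3, matplotlib 3.10.9). No doublet caller was used. Doublets were addressed only by leaving out cells over 3 times the median UMI count. The members, lists and alternatives were chosen with earlier results of these data known. Named genes were the 12 highest and 12 lowest by the value nearer 0 (at least 200 UMIs per library and 20 CPM in members or others, without genes over 5 times higher in barcodes with under 100 CPM of tumour genes), up to 4 per list, the 4 markers, genes of other tumour states and the 8 largest differences between libraries. Of 141 genes so named, those of the text and 16 of 30 lists were picked after their values were seen. Genes were measured in a list from 100 UMIs in each library. A value is above or below when it lies so against the library's median gene in both libraries. Every such count stands beside 30.2% above and 30% below among all 10944 genes. A few items that the naming rule picked are not reported here.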

Additional observations from a re-analysis of the deposited data

Results flagged for a closer look

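The log2 ratio of members over other tumour cells had opposite signs in the libraries, each beyond its counting interval, for 6 of the genes named in the text. F2r stood at 1.26 in control and -0.21 in anti-PD-1, Ptn at 1.13 and -0.28, Lum at 1.21 and -0.19, Dpt at 1.09 and -0.55, and Ncam1 at 0.60 and -0.17. Slc14a1 had the opposite order, at -1.19 in control and 0.50 in anti-PD-1. With 1 library per group the difference was not tested. The signs depended on how cells were chosen: by mean rank the control ratios were -0.36 for F2r, -0.39 for Ptn, -0.63 for Lum, -0.62 for Dpt and -0.45 for Ncam1, F2r in control was at -0.036 after thinning, and without Dkk2 in the sum Slc14a1 in anti-PD-1 was at -0.27 and F2r at 0.70. Lum in anti-PD-1 was at 0.31 after thinning. The fibroblast markers Dpt and Lum belong to the list whose summed level differed in the same direction, and the Ncam1 and F2r pair defines another high-scoring set of tumour cells. In control, 20.9% of the F2r UMIs and 17.1% of the Ptn UMIs of members lay in 1 cell each.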

How the results depend on the processing

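No paired analysis was possible because each group has 1 library and the labels give no replicate numbers. Members were chosen again under each alternative, and values below are those that changed the sign of a log2 ratio (members over others) or moved a share or count past its counting interval or 1.5 times; the cause was not tested. Against 3 genes over 2-fold higher, 10 lower and shares of 1.86% and 15.2%, 26 values moved and 57 did not. Among the 26 are the shares under the top 5%, the top 20% and the top 10% within each library. These settings set or shift the shares by themselves, so such moves say nothing about how stable the shares are. Of the values of single genes, 60 changed sign, 772 moved beyond the counting interval and 2217 did not. Of list medians, 34 changed sign, 153 moved by at least 0.1 and 421 did not. The genes and lists followed here are named in the text and were picked after their values were seen. Not every gene of the text was followed. Dkk2 alone, the weighting by UMI count and the 1.5-fold limit were also picked after values were seen. So were the exclusions of fibroblast-high cells, shared barcodes and single cells. With Dkk2 alone as the score, the genes past the fold limit numbered 0 higher, and the sign was opposite in control for beta-catenin target genes (-0.022) and Nefm (-0.089) and in anti-PD-1 for Lum (0.36). With at least 1000 UMIs per gene, the genes past the fold limit numbered 1 lower. With at least 50 UMIs per gene, the genes past the fold limit numbered 19 lower. With cells thinned to 5000 UMIs, the genes past the fold limit numbered 0 higher and 3 lower, and the sign was opposite in control for S phase genes (-0.12), Wnt ligands (-0.085), Cldn12 (-0.055), F2r (-0.036) and Ift122 (0.034) and in anti-PD-1 for Wnt ligands (0.058), Lum (0.31) and Prl8a9 (0.090). With immune genes under 100 CPM, the share of members was 13.9% in anti-PD-1, and the sign was opposite in control for Wnt ligands (-0.024), Nefm (-0.24) and Col1a1 (0.40). With the mean of single-cell CPM, the sign was opposite in control for type I interferon response (0.033) and Iigp1 (0.066) and in anti-PD-1 for neurofilament and neural genes (0.040), Lum (0.0040) and Prl8a9 (0.19). With the mean rank of the 4 markers, the share of members was 5.93% in control against 12.6% in anti-PD-1. There the sign was opposite in control for G2 and M phase genes (0.029), Wnt ligands (-0.022), fibrillar and other collagens (-0.46), network and short-chain collagens (-0.21), Ncam1 (-0.45), F2r (-0.36), Ptn (-0.39), Lum (-0.63), Trib3 (0.11), Znhit3 (0.16), Dpt (-0.62), Peg3 (-0.56), Ccn2 (-0.15), Cdc20 (0.032), Col4a1 (-0.056), Col4a2 (-0.13) and Tubb3 (0.11). It was opposite in anti-PD-1 for G2 and M phase genes (0.091), hypoxia genes (0.016), F2r (0.024), Mki67 (0.020), Cdc20 (0.085), Kif20a (0.0018) and Lrp5 (-0.13). At 1.5-fold instead of 2-fold, the genes past the fold limit numbered 27 higher and 94 lower. Without Ankrd1 in the sum, the genes past the fold limit numbered 0 higher, and the sign was opposite in anti-PD-1 for Lum (0.0071). Without Col8a1 in the sum, the genes past the fold limit numbered 0 higher, and the sign was opposite in control for S phase genes (-0.020) and in anti-PD-1 for Lum (0.29). Without Dkk2 in the sum, the genes past the fold limit numbered 10 higher and the share of members was 7.38% in control against 11.7% in anti-PD-1. There the sign was opposite in control for ATF4 and unfolded protein response (0.089), Wnt ligands (-0.23), Wnt receptors (0.035), Wnt secreted regulators (-0.022), hypoxia genes (0.047), interferon gamma response (0.071), type I interferon response (0.30), Cxcl10 (1.58), Lum (-0.48), Iigp1 (0.085), Trib3 (0.086), Dpt (-0.15), Peg3 (-0.18), Cd274 (0.016), Ifit1 (0.81) and Tubb3 (0.19). It was opposite in anti-PD-1 for G2 and M phase genes (0.043), hypoxia genes (0.33), Aldh1l2 (0.83), Ncam1 (0.050), F2r (0.70), Mki67 (0.058), Vegfa (0.54), Trib3 (0.18), Slc14a1 (-0.27), Car9 (0.62) and Egln3 (0.31). Without Nefm in the sum, the sign was opposite in control for Wnt receptors (0.033). With the top 10% taken within each library, the genes past the fold limit numbered 5 lower, and the share of members was 10.0% in control against 10.0% in anti-PD-1, and the sign was opposite in control for ATF4 and unfolded protein response (0.0094), S phase genes (-0.11), Wnt receptors (0.034), fibrillar and other collagens (-0.074) and Slc14a1 (0.082) and in anti-PD-1 for Prl8a9 (0.11). With the top 20%, the genes past the fold limit numbered 1 higher and 2 lower, and the share of members was 6% in control against 28.9% in anti-PD-1, and the sign was opposite in control for S phase genes (-0.050), fibrillar and other collagens (-0.064) and Slc14a1 (0.20). With the top 5%, the share of members was 0.724% in control against 7.73% in anti-PD-1, and the sign was opposite in control for S phase genes (-0.21), Wnt secreted regulators (-1.14), sterol and fatty acid synthesis (-0.12), Ccn2 (-0.48) and Insig1 (-0.15) and in anti-PD-1 for Prl8a9 (0.43) and Col1a1 (0.056). With tumour genes at 1000 CPM or more, the sign was opposite in anti-PD-1 for Col1a1 (0.18). Without the tumour cells highest in fibroblast markers, the genes past the fold limit numbered 1 higher, and the sign was opposite in anti-PD-1 for fibrillar and other collagens (0.021), Col1a1 (0.58) and Col1a2 (0.41). Without the member cell with the most UMIs of each gene, the genes past the fold limit numbered 1 higher. The 54 control members limit low genes: 1 UMI among them is about 1.23 CPM.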

Other observations

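Barcodes outside the tumour rule also passed the same score limit. In control 139 of 5495 such barcodes scored at or above it, 99 of them with under 5000 UMIs, and in anti-PD-1 269 of 4853, 153 of them with under 5000 UMIs. Of these, 28 control and 87 anti-PD-1 barcodes had immune genes at 300 CPM or more, and 21 and 38 had tumour genes under 500 CPM; a barcode can fall under several limits.

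The 14 programme lists not described in the report had medians from -0.45 to 0.36 in control and from -0.14 to 0.10 in anti-PD-1. Within members, levels also differed between the libraries: Ccn1 was lower in anti-PD-1 than in control members by a log2 difference of -0.96 (-1.08 to -0.84), against -0.23 in the other tumour cells, and Cenpf was higher by 1.16 (0.62 to 1.74), against -0.16. Of the genes of the neighbouring states, Il24 stood at 28.3 CPM in control members against 30.2 CPM in others and at 6.96 against 2.24 CPM in anti-PD-1. Msln, a cell surface glycoprotein, stood at 51.7 against 60.3 CPM and at 44.8 against 24.2 CPM. Gpnmb, a melanosomal and macrophage glycoprotein, stood at 455 against 482 CPM and at 559 against 788 CPM, and the glutamate receptor Gria3 at 17.2 against 11.7 CPM and 29.7 against 34.8 CPM. The kinase Dmpk was at 76.3 against 75.9 CPM and at 131 against 188 CPM, and the GTPase Iigp1 at 101 against 127 CPM and 15.5 against 29.1 CPM.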
